A study of Rattus norvegicus with 5 samples.

Results

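The genes described here are the subunits of the transcription factor NF-kB, the IkB proteins that hold it in the cytoplasm, and a pair of its feedback genes, measured in rat fat from around the pancreas under a high-fat cafeteria diet and under chow. The rule names 10 genes: Nfkb1, Nfkb2, Rel, Rela, Relb, Nfkbia, Nfkbib, Nfkbie, Tnfaip3 and Birc3. It takes every probe set annotated with exactly 1 symbol that is one of them. Such a probe set was found for 8 of the 10 genes, 1 each, out of 31042 probe sets on the array that are not controls. No value is given for Rel and Nfkbie. All 8 probe sets passed the filter on dim signals that left 21729 for testing.

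The samples came from male Wistar rats that were 7 weeks old at the start and were fed for 30 days. The standard group, described as lean, ate chow with 8% of calories as fat and is represented by 3 arrays. The cafeteria group, described as obese, received 66% of calories as fat and is represented by 2 arrays. Each array carried the total RNA of whole fat from the mesentery next to the pancreas, and the labels call the samples independent. Fat cell genes read high on every array: the fat cell hormone adiponectin (Adipoq) lay at 12.94 to 13.28 log2 units and the lipid droplet protein perilipin 1 (Plin1) at 11.61 to 12.23. The arrays had medians of 5.70 to 5.75. Standard replicate 1 stood apart in that it held acinar transcripts of the neighbouring pancreas, with a mean of 8.84 over 14 acinar markers against 4.59 to 4.91 on the other arrays. The members' differences without that array are given below.

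NF-kB works as dimers of subunits that share the Rel homology domain. In resting cells IkB proteins keep the dimers in the cytoplasm. Signals from tumour necrosis factor, interleukin-1 or bacterial products activate the IKK kinases, which mark IkB for destruction and free the dimers to enter the nucleus. A second, slower route runs through NIK and the processing of the Nfkb2 product p100 to p52. Several of the genes switched on in this way encode parts of the pathway itself, among them the inhibitor IkB-alpha (Nfkbia), the ubiquitin-editing enzyme A20 (Tnfaip3), the precursors p105 (Nfkb1) and p100 (Nfkb2), and the apoptosis inhibitor cIAP2 (Birc3). Their transcripts are therefore often used as readouts of the pathway. In fat the pathway is active in macrophages, endothelial cells and fat cells, and it is best known for its part in obesity-related inflammation.

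The start regions are shown because several of the members, among them Nfkbia, Tnfaip3, Nfkb1 and Nfkb2, are known to be controlled by NF-kB through kB sites. Matches in the windows of such genes were therefore likely in advance. The kB consensus, a degenerate motif of 10 bases, was searched on both strands of the 300 bases from 250 before to 50 after each RefSeq start in the rat build GRCr8. It occurred in 4.18% of 33469 such windows, and at least 2 matches occurred in 0.469%. The table held the windows of 8 members, and 6 of them had a match. Among measured members these were Nfkb1, Nfkb2, Nfkbia and Tnfaip3, while no match lay in the windows of Rela and Nfkbib. The windows of Nfkbie and Rel also had a match. Below, the capitals mark the bases of a match. For Tnfaip3, with 3 matches, the 236 bases that end where the annotated gene body begins are printed (chr1:15543994-15544229, minus strand), and 2 of its matches lie 67 to 46 bases before the start. For Nfkb2 (chr1:255108344-255108373, plus strand), Nfkbia (chr6:78597084-78597113, minus strand) and Nfkb1 (chr2:226805440-226805469, minus strand) 30 bases around the match are shown. These matches lie 20 to 11 bases before the start in Nfkb2, 31 to 22 before it in Nfkbia and 3 to 12 bases after the start base in Nfkb1. A match is a run of letters in this window and was not tested as a binding site.
Tnfaip3: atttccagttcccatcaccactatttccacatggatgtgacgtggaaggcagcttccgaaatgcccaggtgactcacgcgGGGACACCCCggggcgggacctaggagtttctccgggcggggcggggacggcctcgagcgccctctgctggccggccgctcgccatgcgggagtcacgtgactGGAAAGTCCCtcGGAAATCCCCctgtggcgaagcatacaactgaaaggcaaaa
Nfkb2: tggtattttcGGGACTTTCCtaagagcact
Nfkbia: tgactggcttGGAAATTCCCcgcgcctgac
Nfkb1: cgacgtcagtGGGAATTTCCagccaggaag

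Of the 8 measured members, 5 read lower on both cafeteria arrays than on every standard array: Tnfaip3, Nfkbia, Birc3, Nfkb2 and Nfkb1. The cafeteria arrays lay below all standard arrays in this way for 14.1% of all probe sets tested. The 5 genes also had an unadjusted p under 0.05 in limma, against 6.62% of all probe sets in that direction, and no member had one in the other direction, against 6.05%. The mean was lower in cafeteria samples for 7 of the 8, as it was for 51.3% of all probe sets. None passed an adjusted p of 0.05, as was true of every probe set on the array (0.0% called, also with per-probe-set variance), and the smallest adjusted p among the members was 0.253 (limma, Benjamini-Hochberg). The median difference of the 8 was -0.34 log2 units, against -0.0036 over all probe sets tested. Rela, Relb and Nfkbib had groups that overlapped or touched. Since the tissue was measured whole, fewer cells that express these genes and less RNA per cell cannot be told apart.

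**Figure D1:**
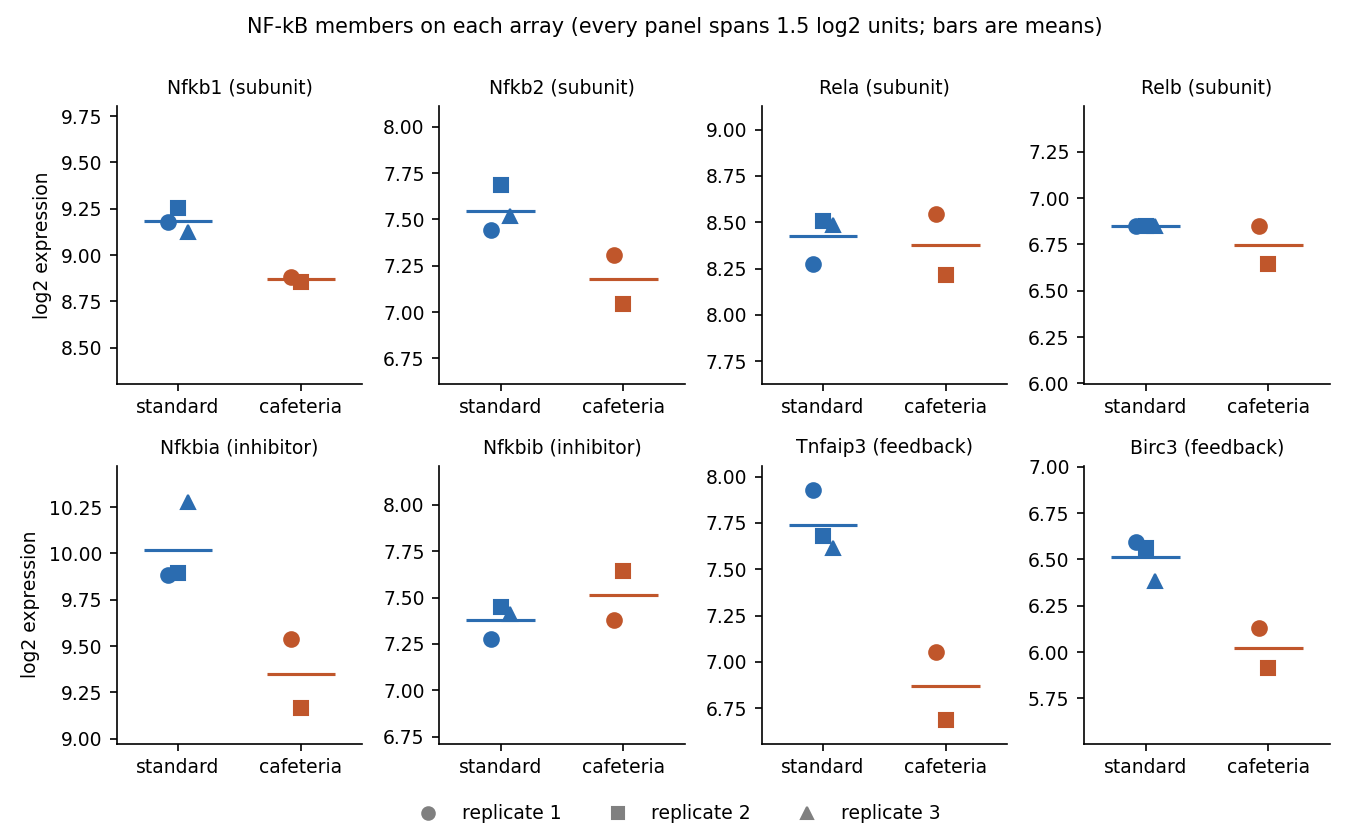
Deposited log2 expression (y axis) of the 8 measured members in standard (blue) and cafeteria (orange) samples, with 1 point per array, symbols for the replicate number and bars for the group means; every panel spans the same number of log2 units but has its own level. Tnfaip3, Nfkbia, Birc3, Nfkb2 and Nfkb1 show no overlap between diets, and all 3 standard arrays and 1 cafeteria array share the value 6.85 for Relb.

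Nfkb1 (probe set 1370968_at) encodes p105, the precursor of the p50 subunit, and the full-length protein also acts as an IkB. It read 8.88 and 8.86 on the cafeteria arrays, and 9.18, 9.25 and 9.12 on the standard arrays. The cafeteria pair nearly coincided, and all standard arrays stood above it by at least 0.24. The means were 8.87 ± 0.02 (SD, n = 2) and 9.19 ± 0.07 (SD, n = 3). In log2 units cafeteria minus standard came to -0.32 ± 0.06 (SE; 95% interval -0.48 to -0.15), or 1.25-fold lower (limma, adjusted p = 0.253). Leaving out single arrays moved it least of the 8 members in absolute terms, between -0.35 and -0.28, and it was -0.32 without standard replicate 1.

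Nfkb2 (1375989_a_at, whose suffix marks a set that can bind more than one transcript) encodes p100, the precursor of p52 and the central molecule of the slower route. It read 7.31 and 7.04 on the cafeteria arrays, and 7.44, 7.68 and 7.52 on the standard arrays. The groups were separated by only 0.13, because cafeteria replicate 1 lay close to standard replicate 1. The difference was -0.37 ± 0.12 (SE), with a 95% interval of -0.69 to -0.05 (limma, adjusted p = 0.349). With cafeteria replicate 1 as the only cafeteria array it was -0.24, and with replicate 2 alone -0.51. Leaving out standard replicate 1 gave -0.43.

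Rela (1372853_at) encodes p65, the subunit that carries the main transactivation domain of the classical dimer. It read 8.54 and 8.21 on the cafeteria arrays, and 8.27, 8.51 and 8.49 on the standard arrays. The cafeteria arrays held both the highest and the lowest value of the 5. The difference of -0.05 ± 0.14 (SE) had a 95% interval of -0.41 to 0.31, so neither a small fall nor a small rise is outside it (limma, adjusted p = 0.889). Its sign turned with the array used, to 0.12 with cafeteria replicate 1 alone and -0.21 with replicate 2 alone, and it was -0.12 once standard replicate 1 was removed.

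Relb (1376160_at) encodes the partner of p52. It read 6.64 on cafeteria replicate 2 and the identical value of 6.85 on the other 4 arrays. At least 1 value shared between arrays occurred for 46.7% of the probe sets tested, and among the members only for Relb. Its difference of -0.10 ± 0.08 (SE), with a 95% interval of -0.31 to 0.10, came from 1 array alone (limma, adjusted p = 0.550). Without cafeteria replicate 2 it was 0, and without standard replicate 1 it was again -0.10.

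Nfkbia (1389538_at) encodes IkB-alpha, the inhibitor that is destroyed on activation and made again at once from its kB-controlled promoter, shown above with its match. It read 9.54 and 9.17 on the cafeteria arrays, and 9.88, 9.89 and 10.28 on the standard arrays. Both cafeteria arrays lay below the standard arrays, and standard replicate 3 was the highest. The means were 9.35 ± 0.26 (SD, n = 2) and 10.02 ± 0.22 (SD, n = 3). The difference of -0.67 ± 0.18 (SE) corresponded to a 1.59-fold lower level, with a 95% interval of -1.15 to -0.18 (limma, adjusted p = 0.314). It was -0.48 without cafeteria replicate 2, -0.54 without standard replicate 3, and -0.73 when the array rich in acinar transcripts was left out.

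Nfkbib (1367943_at) encodes IkB-beta, which also binds classical dimers but is replaced more slowly after activation. It read 7.38 and 7.65 on the cafeteria arrays, and 7.28, 7.45 and 7.41 on the standard arrays. It was the only member with a higher mean in cafeteria samples, by 0.13 ± 0.11 (SE), with a 95% interval of -0.16 to 0.42 (limma, adjusted p = 0.580). The standard values all lay below cafeteria replicate 2, and cafeteria replicate 1 stood among them. Without cafeteria replicate 2 the difference was -0.0030, and without standard replicate 1 it was 0.08.

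Tnfaip3 (1385641_at) encodes A20, which removes and rebuilds ubiquitin chains on signalling proteins upstream of IKK and so ends the signal. It read 7.05 and 6.69 on the cafeteria arrays, and 7.93, 7.68 and 7.62 on the standard arrays. The diets were 0.56 apart at the nearest values, the widest gap among the members. The means were 6.87 ± 0.26 (SD, n = 2) and 7.74 ± 0.17 (SD, n = 3). Cafeteria minus standard was -0.87 ± 0.16 (SE), with a 95% interval of -1.29 to -0.45, or 1.83-fold lower, the largest of the 8 (limma, adjusted p = 0.253). With cafeteria replicate 1 alone it was -0.69, with replicate 2 alone -1.05, and without standard replicate 1 it was -0.78.

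Birc3 (1370113_at) encodes cIAP2, a ubiquitin ligase of the TNF receptor complex that promotes the classical route and limits NIK. It read 6.13 and 5.92 on the cafeteria arrays, and 6.60, 6.56 and 6.38 on the standard arrays. The cafeteria arrays again lay below every standard array. The difference was -0.49 ± 0.11 (SE), with a 95% interval of -0.77 to -0.21, or 1.41-fold lower (limma, adjusted p = 0.276). Without standard replicate 1 it was -0.45. Its close paralogue Birc2 (cIAP1), which has a probe set of its own, was named after its values were seen. Birc2 differed by -0.19 ± 0.08 (SE), with a 95% interval of -0.40 to 0.03 that includes 0 (limma, adjusted p = 0.443). Its cafeteria arrays lay below all standard arrays, as for 14.1% of all probe sets tested. Without standard replicate 1 the difference of Birc2 was -0.13.

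**Figure D2:**
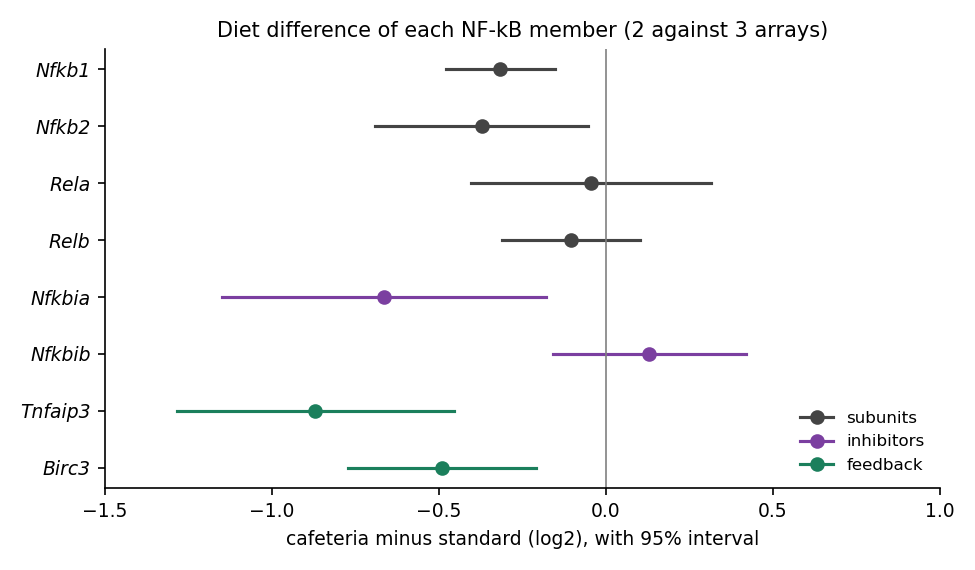
Cafeteria minus standard difference in log2 units (x axis) of each member, with points for the limma estimate and lines for the 95% interval from 2 against 3 arrays, coloured by role. The intervals of Nfkb1, Nfkb2, Nfkbia, Tnfaip3 and Birc3 lie below 0, from -0.87 for Tnfaip3 to -0.32 for Nfkb1, and those of Rela, Relb and Nfkbib include 0; no adjusted p is below 0.253.

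For single genes an exact, two-sided permutation test (10 possible splits) gave p = 0.1 for each of the 5 genes without overlap, the smallest it allows. It gave 0.7 for Rela, 0.4 for Relb and 0.5 for Nfkbib.

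Subunits that pair in a dimer, and the IkB pair, were then compared within arrays, as the difference of the diet differences. Nfkbia differed from Nfkbib by -0.80 log2 units between the diets, with no overlap between the groups (exact permutation test, two-sided, p = 0.1, adjusted p = 0.15 over 3 pairs). For the p100 and RelB genes of the slower route, Nfkb2 and Relb, the value was -0.27, again without overlap (exact permutation p = 0.1, adjusted 0.15). Relb held the same value on every array but cafeteria replicate 2. On those arrays this pair therefore follows Nfkb2 alone and adds little to the result of that gene. For the p105 and p65 genes of the classical route, Nfkb1 and Rela, it was -0.27 with overlapping groups (exact permutation p = 0.3, adjusted 0.3). With 10 splits this permutation test cannot give a p below 0.1. The pairs were chosen with earlier results known, and the share of other gene pairs without overlap was not computed. The pair of Nfkbia and Nfkbib sets a lower member against the only member with a higher mean in cafeteria samples.

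The cafeteria arrays differed from each other. Cafeteria replicate 2 held the lowest value of all 5 arrays for 7 of the 8 members, the exception being Nfkbib. Over all probe sets tested, this array alone held the lowest value for 22.3%. The mean of the 8 members was 7.71 and 7.52 on the cafeteria arrays and between 7.93 and 7.99 on the standard arrays. Without cafeteria replicate 2, 3 members kept an unadjusted p under 0.05, namely Tnfaip3, Nfkb1 and Birc3, against 8.86% of all probe sets lower in that fit of 3 chow arrays and 1 cafeteria array. Without cafeteria replicate 1 there were 6, against 9.96% of all probe sets. The added member was Relb, whose 3 standard arrays share 1 value and so have no spread. The differences of Tnfaip3, Nfkbia, Birc3, Nfkb2 and Nfkb1 were below 0 whichever array was left out. Their lack of overlap made this certain, so only the sizes of the differences could vary.

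**Figure D3:**
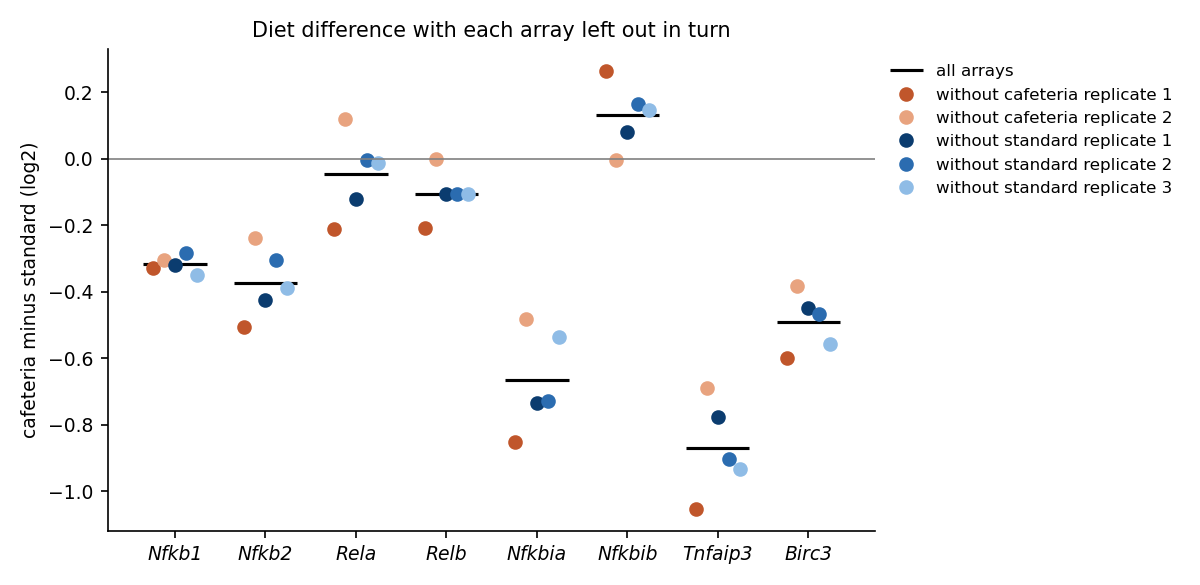
Cafeteria minus standard difference in log2 units (y axis) of each member with all arrays (black bar) and with each array left out in turn (points). Tnfaip3 ranges from -1.05 to -0.69 and Nfkbia from -0.85 to -0.48, while the points of Rela, from -0.21 to 0.12, and Nfkbib lie on both sides of 0.

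Tnfaip3 had the widest range over the arrays among the members, 1.24 log2 units. Among 11508 other genes, each by its brightest probe set, the 5 whose centred values over the 5 arrays were closest to it were the homeobox gene Meox1, the nuclear receptor gene Nr5a2, the secreted chaperone clusterin (Clu), the phosphatase gene Ubash3b and the protease inhibitor gene Serpine2. Their root mean square distances from Tnfaip3 were 0.05 to 0.08 log2 units. By the same measure Birc3 was the closest member, at rank 112 with 0.20, and Nfkbia followed at rank 233 with 0.25. Nfkbib was the farthest, at rank 9530. These ranks rest on 5 arrays and describe them.

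The genes on either side of the members were taken from 4 lists of the pathway, with 1 probe set per gene. Of 107 listed genes 96 were on the array and 83 passed the filter. Lower in cafeteria samples at an unadjusted p under 0.05 were 11 of the 83 (13.3%), against 6.88% of 11509 genes tested, and higher were 3 (3.61%), against 6.73%. None passed an adjusted p of 0.05 in limma (0.0% of genes called), and the median difference was -0.10, against -0.0027 over all genes. The genes are described in the order of the signal, from the cell surface to the targets.

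Of 16 ligands and receptors past the filter, 1 was lower and 1 higher at an unadjusted p under 0.05, shares near those over all genes. The lower one was Il1r1, the signalling receptor of interleukin-1. It read 8.51 and 8.37 on the cafeteria arrays and 8.94 to 9.19 on the standard arrays, a difference of -0.59 ± 0.11 (SE), and its dimmer probe sets gave -0.38 and -0.47. The higher one was Tnf, the tumour necrosis factor gene, at 5.04 and 5.05 against 4.78 to 4.81, a difference of 0.25 ± 0.05 (SE) at a level below the array medians. A second Tnf probe set, under the filter, gave -0.21. Lymphotoxin beta (Ltb), a ligand of the slower route, differed by -0.88 ± 0.39 (SE), but by -0.26 with cafeteria replicate 1 alone and by -1.51 with replicate 2 alone. The TNF receptor gene Tnfrsf1b differed by -0.35 ± 0.17 (SE), or by -0.20 without standard replicate 2. The co-receptor gene Cd14, named for its bright signal, differed by -0.04 ± 0.05 (SE).

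Among adaptors and kinases, 3 of 27 genes were lower at an unadjusted p under 0.05 (11.1%), against 6.88% of all genes tested. Higher were 0, against 6.73%. Rnf31 encodes the catalytic subunit of the complex that builds linear ubiquitin chains, on which A20 and IKK assemble. It read 7.96 and 7.75 on the cafeteria arrays and 8.56 to 8.99 on the standard arrays, a difference of -0.88 ± 0.16 (SE), as large as that of Tnfaip3. Ikbkb, the kinase IKK-beta that marks IkB-alpha, differed by -0.22 ± 0.08 (SE), with 7.94 and 7.98 against 8.08 to 8.27, and its second probe set, under the filter, gave -0.05. Prkcb, a protein kinase C of B cells that acts upstream of IKK, differed by -0.69 ± 0.16 (SE), or by -0.45 without cafeteria replicate 2, its other probe set past the filter gave -0.62, and one under the filter gave -0.24. Its T cell counterpart Prkcq differed by -0.77 ± 0.33 (SE), or by -0.24 with cafeteria replicate 1 alone and -1.30 with replicate 2 alone. The partner kinase gene Chuk (IKK-alpha) differed by 0.02 ± 0.13 (SE), with a 95% interval of -0.32 to 0.35, by 0.21 with cafeteria replicate 2 alone and by -0.17 with replicate 1 alone.

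Among further inhibitors and modulators, 1 of 17 genes was lower and 1 higher at an unadjusted p under 0.05 (5.88% each). Over all genes tested the shares were 6.88% and 6.73%. Bcl3, an IkB-like protein that works in the nucleus and is itself a known NF-kB target, differed by -0.48 ± 0.16 (SE) on its brightest probe set and by -0.32 and -0.03 on the other 2. Commd1, which promotes the removal of RelA from DNA, was higher by 0.30 ± 0.07 (SE). The deubiquitinase gene Cyld differed by -0.17 ± 0.09 (SE), by -0.10 without cafeteria replicate 2, by -0.11 without standard replicate 1 and by 0.20 on its other probe set. Pdlim2, a ligase for nuclear RelA, differed by -0.55 ± 0.25 (SE), or by -0.17 with cafeteria replicate 1 alone and -0.94 with replicate 2 alone. The A20 adaptor gene Tax1bp1, named for its bright signal, differed by -0.04 ± 0.06 (SE).

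Among genes known as NF-kB targets in other settings, 6 of 23 past the filter were lower at an unadjusted p under 0.05 (26.1%) and 1 was higher (4.35%). Over all genes tested the shares were 6.88% and 6.73%. The transcription factor gene Irf1 read 8.45 and 8.51 on the cafeteria arrays and 9.02 to 9.22 on the standard arrays, a difference of -0.62 ± 0.08 (SE) or 1.54-fold lower (limma, adjusted p = 0.222). Ccl19, a chemokine that guides T cells and dendritic cells, differed by -0.63 ± 0.09 (SE), with 6.43 and 6.27 against 6.89 to 7.09. The urokinase gene Plau differed by -0.42 ± 0.09 (SE), and its second probe set gave -0.54. Cxcl13, the B cell chemokine, was named for its bright signal and varied widely within the cafeteria group. It read 11.10 and 8.24 on the cafeteria arrays and 11.83 to 12.33 on the standard arrays, so its difference of -2.48 ± 0.89 (SE) was -3.91 with cafeteria replicate 2 alone and -1.05 with replicate 1 alone. Nos2, the inducible nitric oxide synthase gene, was the one higher, by 0.35 ± 0.10 (SE). The median over the 23 targets was -0.13.

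**Figure D4:**
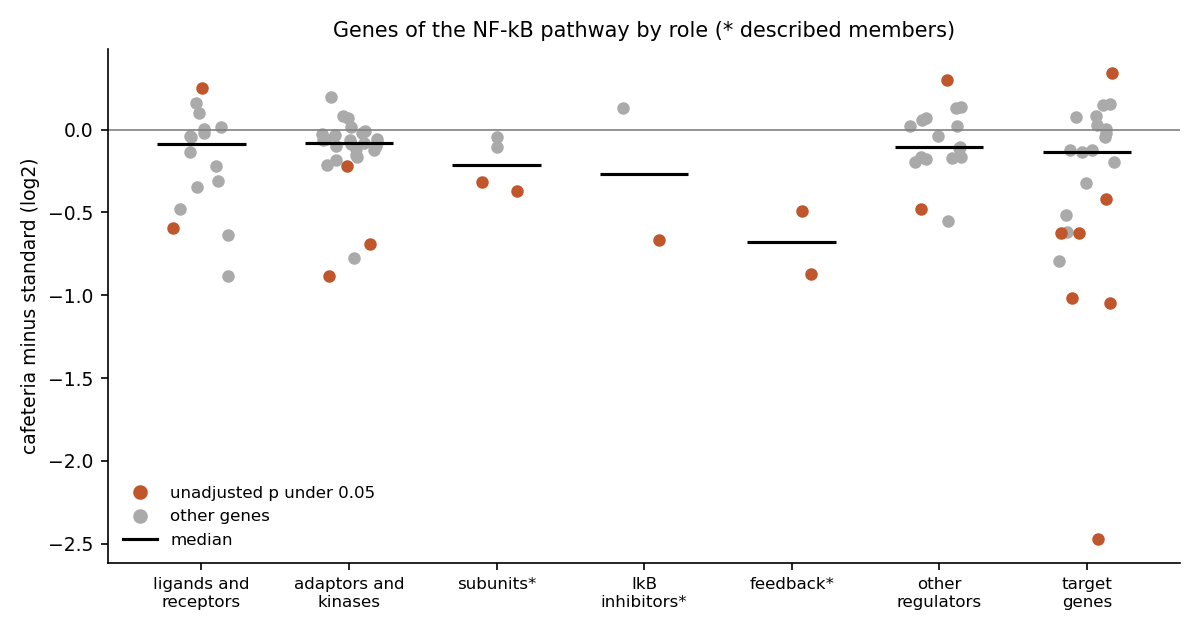
Cafeteria minus standard difference in log2 units (y axis) of pathway genes past the filter, grouped by role from the cell surface to the targets, with 1 point per gene and a bar for the median; orange points have an unadjusted p under 0.05 and none has an adjusted p under 0.05. The medians lie at -0.09 for ligands and receptors, -0.08 for adaptors and kinases, -0.68 for the 2 feedback genes and -0.13 for targets, and the lowest point is Cxcl13 at -2.48.

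Marker genes of the cell types in the tissue were set beside the members, and none passed an adjusted p of 0.05 in limma. At an unadjusted p under 0.05, 4 of 12 endothelial and 1 of 10 mast cell markers were lower, against 6.88% of all genes tested. Higher were 6 of 12 fat cell and 2 of 9 fibroblast and progenitor markers, against 6.73% of all genes. Among 9 smooth muscle and pericyte markers, 1 was lower and 1 higher. That threshold was passed by 0 of 13 macrophage, 0 of 10 T cell and 0 of 3 B cell markers. The mean of 12 of 14 endothelial markers was 8.21 and 8.68 on the cafeteria arrays and 8.78 to 8.89 on the standard arrays, with a lower mean for all 12 genes and no overlap between the list means. The T cell mean, over 10 of 12 markers, was 5.076 to 5.622 in cafeteria and 5.621 to 6.09 in standard samples. The overlap was thus very narrow, and all 10 genes had a lower mean. The macrophage mean, over 13 of 13 markers, was 9.20 to 9.48 in cafeteria and 9.34 to 9.79 in standard samples, with overlap. All 13 genes had a lower mean. The mast cell mean, over 10 of 11, was 6.84 to 7.63 against 7.53 to 8.25, also with overlap. All 10 mast cell genes had a lower mean, as did 51.3% of all probe sets tested. For B cells only 3 of 8 markers passed the filter, at 5.02 to 6.09 against 5.65 to 6.19, and for neutrophils only 1 of 8, with the neutrophil genes S100a8 and S100a9 under it. Fat cell markers ran the other way, at 11.59 and 11.75 against 11.15 to 11.37 over 12 of 12 genes, and so did those of fibroblasts and progenitors, at 11.43 and 11.59 against 11.20 to 11.32 over 9 of 10. The lists of smooth muscle and pericytes, with 7.81 to 9.56 in standard samples, and of the mesothelium overlapped between the diets. Cafeteria replicate 2, the array with the lowest NF-kB members, was also the lowest for T cell, B cell, mast cell, macrophage and mesothelial markers, the last at 8.97 against 9.22 to 9.79 on the other arrays, whereas cafeteria replicate 1 was the lowest for endothelial markers. The part of these cell types in the differences of the NF-kB members was not tested.

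**Figure D5:**
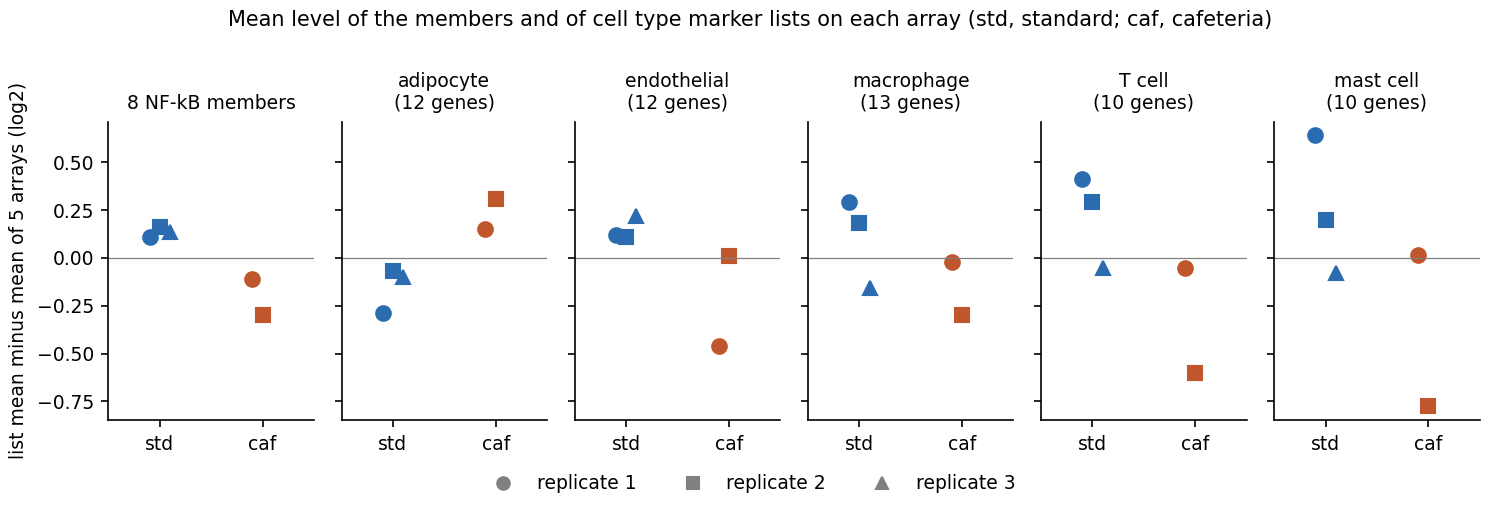
Mean log2 level of the 8 members and of 5 marker lists on each array, minus the mean of the 5 arrays (y axis), for standard (blue) and cafeteria (orange) samples, with symbols for the replicate number. The members, the fat cell list and the endothelial list show no overlap between the diets, and cafeteria replicate 2 is the lowest array for the members (-0.30) and for the macrophage, T cell and mast cell lists.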

How the data were processed

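The deposited values are log2 expression levels, 1 per probe set and array. Per the submitters' processing notes the authors used RMA and affy, with versions not given in the sources used here; RMA makes array distributions alike, which can hide a shift shared by most transcripts. Groups follow the sample titles. Of the rest after dropping 57 controls, probe sets with a mean over all arrays above the 30th percentile (4.28) were kept. The diet contrast used limma 3.58.1 (lmFit, eBayes; R 4.3.3), two-sided, with Benjamini-Hochberg adjustment over 21729 probe sets; the fit had 3 residual and 1.5 prior degrees of freedom and was tested on simulated data. Symbols came from GEO's platform annotation, and promoter sequences from RefSeq (GRCr8). The genes named outside the members were, per list, up to 4 with the smallest p and the one with the highest mean, the 5 genes closest to the member of widest range, and defining cell type markers. Outside this rule, Birc2 was named after its values were seen, as the paralogue of Birc3. Ccl21, Ltbr, Map3k14, Cd40, Ccl5 and Bcl2a1, given under the other observations, were also named outside this rule with their values known. Members, lists and tests were chosen with earlier results of these data known. Between any pair of arrays 11.7% to 14.7% of probe sets held identical values, and no arrays were merged. The number of arrays limits the precision. Titles share replicate numbers 1 and 2, and deviations of same-numbered arrays from their group means had r = 0.08 and -0.04 over probe sets. With 2 cafeteria arrays these deviations mirror each other, so this check cannot exclude pairing. The labels call the samples independent, and the arrays were not paired. P-values measure the spread between these samples. Alternatives were other filters, normalizations and variance models, array weights and the mean of a gene's probe sets. Others used the replicate number as a block or omitted single arrays. Another left out probe sets with the suffix _a, _s or _x, which marks sets that can bind several transcripts.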

Additional observations from a re-analysis of the deposited data

How the results depend on the processing

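Across 15 alternatives (14 for Nfkb2) the differences of Tnfaip3, Nfkbia, Birc3, Nfkb2 and Nfkb1 were below 0 in each. Changing the filter, the variance model or the probe sets tested leaves a difference as it was. Omitting or weighting arrays cannot turn the sign where groups do not overlap, as in these genes. The replicate block repeats the differences without standard replicate 3. With both cafeteria arrays kept, the lowest adjusted p of a member was 0.202 (limma, Tnfaip3, filter at the 50th percentile). No member reached an adjusted p under 0.05 in any of the alternatives. Over the whole array limma called 0 probe sets at that threshold under each of them, with 1439 lower and 1315 higher at an unadjusted p under 0.05 in the analysis as reported. With ordinary per-probe-set variance, the members lower at an unadjusted p under 0.05 numbered 3 in place of 5 (Nfkb2 and Nfkbia were lost). The probe sets lower numbered 928 in place of 1439, and the other pathway genes lower 6 in place of 11. The differences themselves stayed the same, as that setting changes only the variance and its degrees of freedom. Leaving out single arrays gave 3 to 6 members lower, a member median of -0.42 to -0.27, 998 to 2164 probe sets lower, 967 to 2010 higher, 7 to 16 other pathway genes lower and 2 to 5 higher. Over single arrays left out Rela ranged from -0.21 to 0.12 and Nfkbib from -0.0030 to 0.26, both changing sign when cafeteria replicate 2 was absent. With the replicate number as a block, 4 members were lower at an unadjusted p under 0.05, with a median of -0.37 and Tnfaip3 at -0.93, and 1246 probe sets were lower and 960 higher. Quantile normalization moved the member median to -0.32, and with it 1222 probe sets were lower and 1564 higher. A design of 2 against 3 arrays has few degrees of freedom, and a fit that leaves out a cafeteria array takes its spread from the standard arrays alone.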

Other observations

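The slower NF-kB route is known to control chemokines of lymphoid tissue, and 3 of them, chosen after their values were seen, are given here with no test of the differences between them. Cxcl13 and Ccl19 read lower on both cafeteria arrays than on every standard array, as did 14.1% of all probe sets tested. Their mean differences were -2.48 and -0.63 log2 units. With cafeteria replicate 1 alone they were -1.05 and -0.54, and with replicate 2 alone -3.91 and -0.71. Ccl21, which guides the same cells as Ccl19, read 9.55 and 9.32 on the cafeteria arrays and 9.22 to 9.47 on the standard arrays. Its difference was 0.08 ± 0.11 (SE), or -0.04 with cafeteria replicate 2 alone. The receptor gene of the slower route, Ltbr, differed by 0.02 ± 0.06 (SE), its kinase gene Map3k14 (NIK) by -0.12 ± 0.08 (SE) and the receptor gene Cd40 by 0.16 ± 0.15 (SE), the last being -0.02 with cafeteria replicate 1 alone. Ccl5 and the survival gene Bcl2a1, both targets that lymphocytes and myeloid cells express, were also picked with their values known. They differed by -1.05 ± 0.39 (SE) and -1.02 ± 0.36 (SE). Cafeteria replicate 1 alone gave -0.53 for Ccl5 and -0.89 for Bcl2a1, and replicate 2 alone gave -1.56 and -1.14. Without standard replicate 1 Ccl5 differed by -1.14 and Bcl2a1 by -0.72. In limma the adjusted p of Ccl19, 0.228, was the lowest of these.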
